A study of Mus musculus with 27 samples.

Results

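Genes of the p53 response and of the Gadd45 family were followed in differentiating mouse embryonic stem cells. They are Aen, Pmaip1, Fas, Cdkn1a, Mdm2, Ccng1, Gadd45a, Gadd45b and Gadd45g, 9 of the 13297 genes tested. Members were found by the gene symbols of the array's annotation. Each was read on the brightest of its probe sets (mean over the 27 arrays), and the 10 further probe sets of these genes served as a check. AB2.2 embryonic stem cells carried a lentivirus that makes enhanced green fluorescent protein along with a short hairpin RNA (shRNA), which silences the messenger RNA that it pairs with. The hairpin of the Sox17 shRNA arm was directed against Sox17, a transcription factor of the endoderm, and in the control arm against firefly luciferase, which mouse cells lack. All groups were therefore transduced and enriched for fluorescent cells by flow sorting. They were then grown as embryoid bodies, aggregates that form the germ layers, in hanging drops, and were plated after 4.5 days. Arrays were run for 7 days (day 0, 2, 4 and 5, then 6, 8 and 10), with 2 arrays labelled as biological replicates in each arm and day. For day 0 with the Sox17 shRNA there is 1 array, since the labels give the other replicate as failed. The labels do not say whether replicates were separate transductions, so p-values measure only the spread between these arrays.

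The transcription factor p53 is held low by Mdm2, a ubiquitin ligase that is itself a p53 target. When p53 is stabilised, by DNA damage or other stress, it activates genes that halt the cell cycle, repair DNA or start cell death, and in embryonic stem cells it is also known to favour the exit from pluripotency. The Gadd45 proteins are small stress sensors that bind PCNA, Cdk1 and the kinase Map3k4, and Gadd45a has been linked to DNA repair and demethylation. Gadd45a is a p53 target, whereas Gadd45b and Gadd45g are induced mainly by other signals.

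The stretches below come from the members' promoters that carry the decamer consensus that p53 binds. They are shown because the members are grouped here as p53 targets. Each is read 5′ to 3′ on the strand of the gene, from RefSeq promoters of build GRCm38.p6, with the match in capitals. 
Aen, chr7:78895927-78895956, plus strand: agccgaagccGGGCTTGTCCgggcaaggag
Cdkn1a, chr17:29090918-29090947, plus strand: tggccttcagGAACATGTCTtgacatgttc
Mdm2, chr10:117710925-117710954, minus strand: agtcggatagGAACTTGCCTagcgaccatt
Ccng1, chr11:40755452-40755481, minus strand: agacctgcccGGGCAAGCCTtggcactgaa
Gadd45a, chr6:67037428-67037457, minus strand: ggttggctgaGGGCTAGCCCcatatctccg

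The match of Aen began 11 bases after a transcription start, and that of Gadd45a 40 bases before one. The printed matches of Cdkn1a, Mdm2 and Ccng1 began 51, 186 and 185 bases before a start. The windows ran from 250 bases before to 50 bases after a start, and the decamer equals its own reverse complement, so a search of 1 strand covers both. A match stood in a window of 5 of the 8 members that had one (62.5%). This compares with 8.36% of all 32851 windows, 9.55% of 27025 genes and 7 of 25 other p53 targets (28.0%). The Cdkn1a window at chr17:29090729-29091028 held 2 matches, and only the later along the gene's strand is printed. Another Cdkn1a window, at chr17:29093519-29093818, held 0. Fas, Gadd45b and Gadd45g had a window without these letters, and for Pmaip1 none was searched. A match is a description of the letters and not a binding site.

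The arrays gave log2 expression values made with RMA, on which 1 unit is a factor of 2. Array medians lay between 5.502 and 5.558, and replicate arrays correlated at 0.964 to 0.998 over the genes tested. Sox17 read 10.30 to 10.66 on the day 4 control arrays against 5.53 and 9.39 in the Sox17 shRNA arm. At day 6 it read 9.83 and 9.35 against 8.6 and 9.39, where the arms overlapped. Averaged over days 4 to 10 it was lower by a log2 difference of -2.00 (SE 0.36, limma adjusted p = 3.63e-04, 10 arrays against 10). The stem cell marker Pou5f1 read 12.59 and 12.54 on the day 0 control arrays and 12.35 on the Sox17 shRNA array. The bioB spike-in, which is added at hybridisation, was bright (8.86 to 9.37) on all arrays of days 0 and 2 and on replicate 1 of day 4, and dimmer (6.19 to 7.67) on the other 18 arrays. The actin control's 3′ to 5′ difference, a sign of RNA integrity, was 0.862 and 0.753 on Sox17 shRNA replicate 2 of days 4 and 6, against 0.327 to 0.548 on the other 25 arrays. All tests below are limma's moderated test on all 27 arrays, adjusted over the 13297 genes, and a gene is said to rise, fall or change where the adjusted p is below 0.05.

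**Figure D1:**
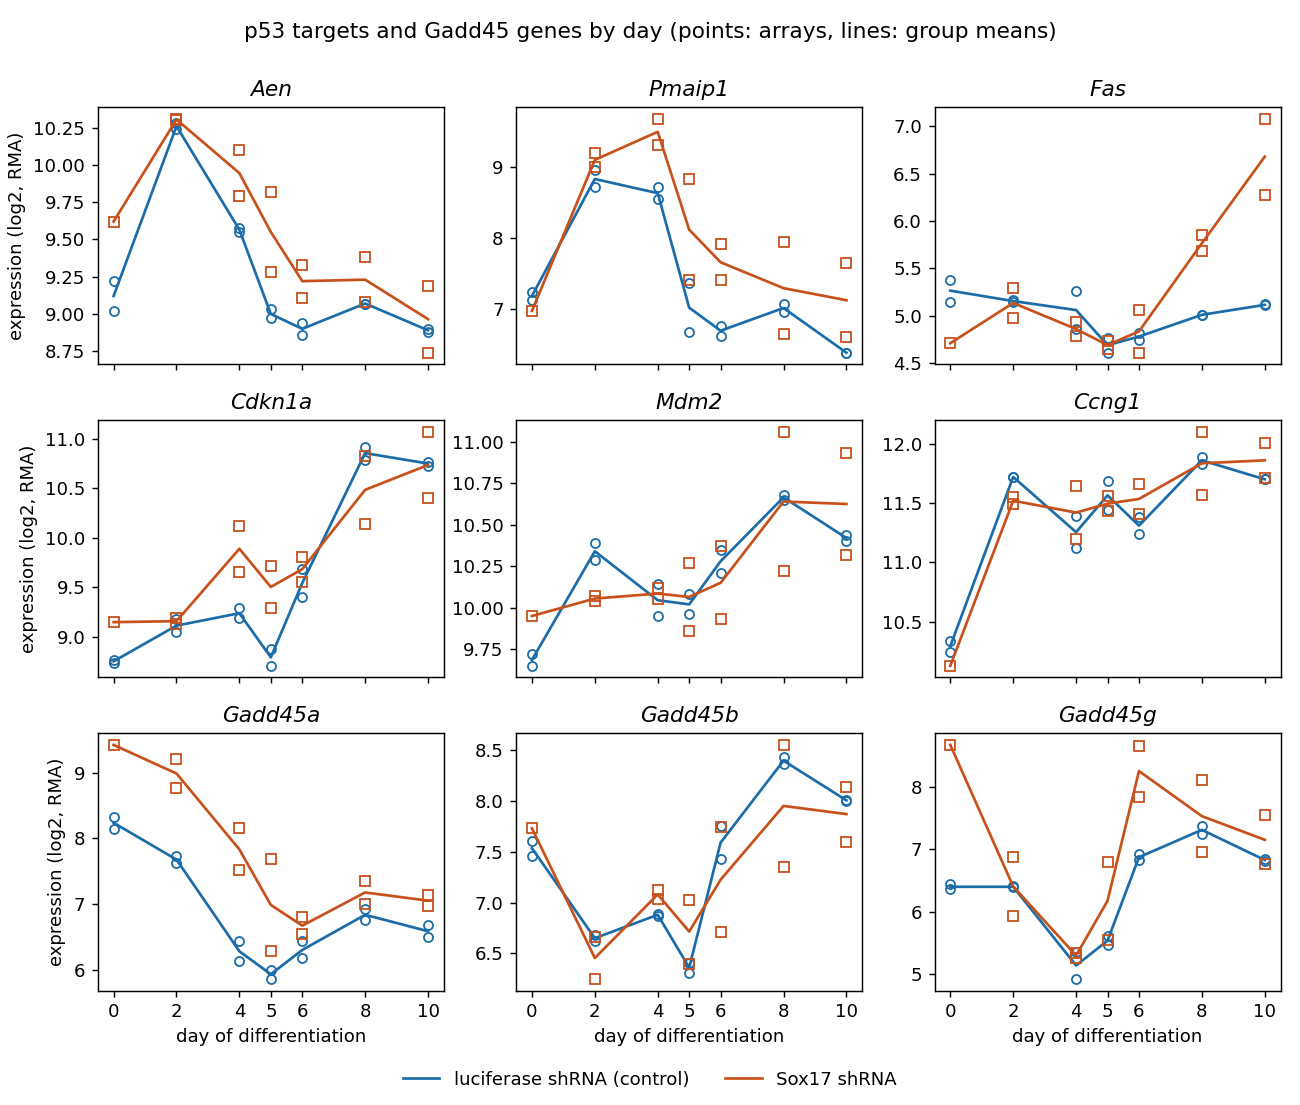
Expression of the 9 genes (log2, RMA) against the day of differentiation in the control and the Sox17 shRNA arm, with 1 point per array and lines through the group means. Aen, Pmaip1 and Ccng1 stand higher at day 2 than at day 0 in both arms, Gadd45a lies higher in the Sox17 shRNA arm at all 7 days, and Gadd45g stands apart on the single Sox17 shRNA array of day 0.

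The first question was whether the p53 targets rose as the cells left the stem cell state, between day 0 and day 2. The 9 genes were chosen with earlier results of these data known. Their counts beside those of all genes are thus a description and not a test of the set. In the control arm 4 of the 9 genes rose (Aen, Pmaip1, Mdm2 and Ccng1) and 1 fell (Gadd45b). Over all genes tested, 16.6% rose and 15.4% fell in the same step. The median difference of the 9 was 0.36 on the log2 scale, against 0.02 over all genes. In the Sox17 shRNA arm 3 of the 9 rose (Aen, Pmaip1 and Ccng1) and 2 fell (Gadd45b and Gadd45g), against 7.76% and 8.65% of all genes, and the median was 0.10. The step from day 0 in that arm rests on its single day 0 array, which is assumed to vary like the other groups.

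Pmaip1 encodes Noxa, a BH3-only protein that binds Mcl1 and promotes mitochondrial cell death. It read 7.13 and 7.23 on the control arrays of day 0 and 8.95 and 8.71 on those of day 2. The Sox17 shRNA arrays read 6.97 on day 0 and 9.20 and 9.0 on day 2. The day 2 arrays lay above the day 0 arrays in each arm with no overlap. The rise was 3.14-fold in the control arm (log2 difference 1.65, SE 0.42, adjusted p = 0.00496) and 4.37-fold in the Sox17 shRNA arm (2.13, SE 0.51, adjusted p = 0.00728). Both rises passed in every alternative run and without any 1 of the day 2 arrays or of the control arrays of day 0. The single Sox17 shRNA array of day 0 could not be left out. At day 4 the control arrays still read 8.71 and 8.55, a difference of -0.20 from day 2 (adjusted p = 0.739, 95% interval -1.08 to 0.67). By day 5 the control arrays were at 7.36 and 6.67, and from day 6 on they lay between 6.38 and 7.06, below both arrays of day 0.

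Ccng1 encodes cyclin G1, which brings the phosphatase PP2A to Mdm2. On the control arrays it read 10.25 and 10.34 (day 0), then 11.72 and 11.72 (day 2), and in the Sox17 shRNA arm 10.13 and then 11.49 and 11.55. All day 2 arrays exceeded all day 0 arrays by more than 1 unit. The rise was 2.69-fold in the control arm (1.43, SE 0.16, adjusted p = 2.14e-06) and 2.63-fold in the Sox17 shRNA arm (1.39, SE 0.20, adjusted p = 6.93e-05). Both other Ccng1 probe sets rose too, by 1.39 and 1.86 in the control arm and by 1.12 and 1.57 in the Sox17 shRNA arm. Its later level was also above the start: the control arrays of days 4 to 10 ranged from 11.12 to 11.89, and day 10 was 2.64-fold above day 0 (1.40, SE 0.16, adjusted p = 5.24e-07). The promoter that carries its decamer is printed here for the 250 bases before the start, chr11:40755287-40755536 on the minus strand, with the match in capitals. 
Ccng1 promoter: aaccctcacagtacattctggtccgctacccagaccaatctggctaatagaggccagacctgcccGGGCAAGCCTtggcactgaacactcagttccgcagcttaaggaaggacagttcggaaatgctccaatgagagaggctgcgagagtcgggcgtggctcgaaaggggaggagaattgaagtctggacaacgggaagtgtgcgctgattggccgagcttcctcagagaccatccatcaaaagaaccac

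Aen encodes an exonuclease that p53 induces and that degrades DNA in dying cells. It read 9.22 and 9.02 on the control arrays of day 0, 10.24 and 10.28 on day 2, 9.58 and 9.55 on day 4 and 8.97 and 9.03 on day 5. The control arm thus formed a peak at day 2, with day 4 between it and the starting level. It rose 2.21-fold to day 2 (1.14, SE 0.17, adjusted p = 3.89e-05) and fell by 0.70 on the log2 scale to day 4 (SE 0.17, adjusted p = 0.00397). The Sox17 shRNA arrays read 9.62 on day 0, 10.30 and 10.31 on day 2, 10.10 and 9.79 on day 4 and 9.82 and 9.28 on day 5. The rise there was 0.69 (SE 0.20, adjusted p = 0.0267), and the call was lost without day 2 replicate 1 (adjusted p = 0.0755) or replicate 2 (0.089). The step down to day 4 in that arm was -0.36 (adjusted p = 0.121).

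The Aen probe sets disagreed on the way down. All 4 rose to day 2 in the control arm, by 0.82 to 1.30. From day 2 to day 4 the probe sets differed by -0.70, -0.93, -0.04 and 0.07, and the last 2 (adjusted p = 0.918 and 0.866) are the dimmest. The fall by day 4 was thus called on 2 of the 4 Aen probe sets. The dimmest 2 read lower later. At day 6 their control arrays read 6.43 and 6.31 after 6.83 and 7.19 at day 2, and 5.64 and 5.79 after 6.23 and 6.29.

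Mdm2 and Cdkn1a moved less at day 2. Mdm2, the ligase that degrades p53, read 9.65 and 9.72 on the control arrays of day 0 and 10.29 and 10.39 at day 2. It rose 1.57-fold (0.65, SE 0.22, adjusted p = 0.0274), but the call was lost without any of these 4 arrays (adjusted p = 0.0744 to 0.132). Its other probe set with signal gave 0.86 (adjusted p = 0.0514), and the third, which lay below the median of all values on every array, 0.10. With the Sox17 shRNA, Mdm2 read 9.95 at day 0 and 10.04 and 10.07 at day 2, a difference of 0.10 (adjusted p = 0.86, 95% interval -0.46 to 0.66). The difference between the arms in this step was -0.55 (adjusted p = 0.778).

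Cdkn1a encodes p21, the cyclin-dependent kinase inhibitor that carries out p53 arrest. On the control arrays it read 8.77 and 8.74 (day 0), then 9.05 and 9.18 (day 2), and in the Sox17 shRNA arm 9.15 and then 9.19 and 9.13. The control arrays of day 2 lay above those of day 0, while in the other arm they lay on either side of the single array. Neither step passed the test (0.36, adjusted p = 0.242, and 0.01, adjusted p = 0.992). Its rise came later. On day 6 the control arrays read 9.40 and 9.69, and on day 10 10.77 and 10.73, 3.99-fold above day 0 (2.00, SE 0.22, adjusted p = 3.58e-07). The other Cdkn1a probe set gave 0.87 for that rise (adjusted p = 0.025). Mdm2 and Ccng1 were also higher at day 10 than at day 0, Mdm2 by 0.73 (adjusted p = 0.00602). That call was lost with bioB as a covariate (0.72, adjusted p = 0.0737), and its other probe sets gave 0.38 (adjusted p = 0.284) and -0.05.

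Over days 0 to 10 of the control arm, 3 of the 9 genes rose (Cdkn1a, Mdm2 and Ccng1), against 31.5% of all genes, and 1 fell (Gadd45a), against 40.0%. These shares are close to or below the background. From day 2 to day 4, 0 of the 9 rose in the control arm (15.5% of all genes) and 4 fell (Aen, Ccng1, Gadd45a and Gadd45g, against 17.0%). The 0 holds for unadjusted p below 0.05 as well. In the Sox17 shRNA arm 1 rose in that step (Cdkn1a, 11.9% of all genes) and 1 fell (Gadd45a, 11.6%).

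The bioB signal changed within day 4, between replicate 1 and replicate 2. The control difference of Aen from the day 2 mean was -0.68 on replicate 1, whose bioB was as bright as at day 2, and -0.71 on replicate 2. For Gadd45a it was -1.55 and -1.24, and for Gadd45g -1.48 and -1.04. These genes thus read below the day 2 mean on both arrays of day 4. Only a single array had the like bioB signal, and the part of the bioB change in the falls was not tested. The Ccng1 fall of -0.47 (adjusted p = 0.0332) was -0.33 and -0.60, and its call was lost with bioB as a covariate (-0.31, adjusted p = 0.122), without either control array of day 2 (0.115 and 0.111) or without day 4 replicate 2 (-0.33, adjusted p = 0.269).

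**Figure D2:**
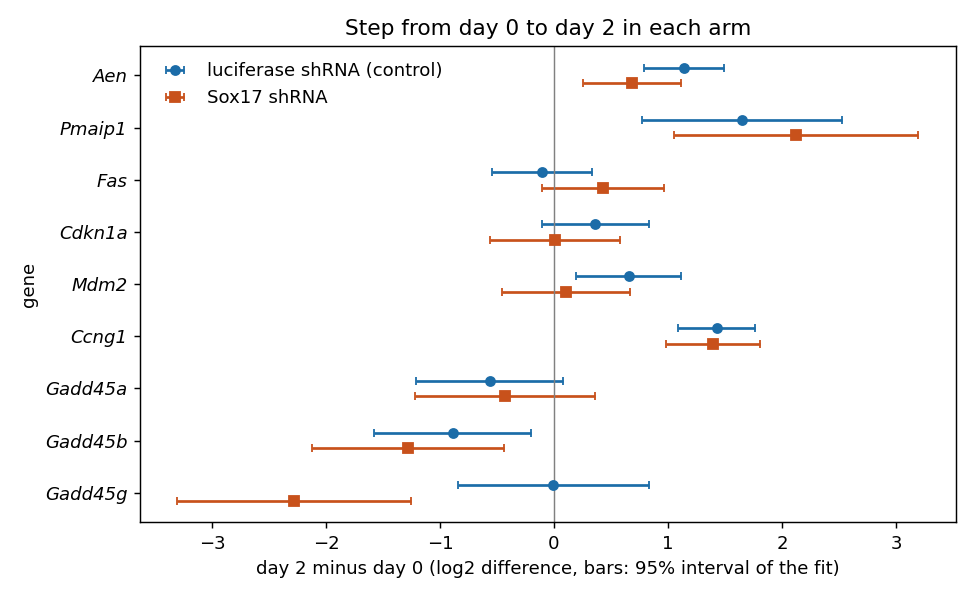
Day 2 minus day 0 (log2 difference) for each gene in the control arm (2 arrays against 2) and the Sox17 shRNA arm (2 against 1), with the 95% interval of the limma fit as bars. The intervals of Aen, Pmaip1 and Ccng1 lie above 0 in both arms, and that of Gadd45g lies below 0 in the Sox17 shRNA arm, at -2.28.

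The 3 Gadd45 genes had profiles of their own. Gadd45a read 8.33 and 8.14 on the control arrays of day 0, 7.73 and 7.62 on day 2, 6.13 and 6.43 on day 4 and 5.86 and 6.0 on day 5. Later control arrays lay between 6.17 and 6.92. The fall from day 2 to day 4 was 2.63-fold in the control arm (-1.39, SE 0.31, adjusted p = 0.00213), and day 10 was 3.14-fold below day 0 (-1.65, SE 0.31, adjusted p = 1.22e-04). With the Sox17 shRNA it fell by 1.16 on the log2 scale from day 2 to day 4 (adjusted p = 0.0112), a call lost without day 2 replicate 1 (-0.94, adjusted p = 0.11) or day 4 replicate 2 (-0.84, adjusted p = 0.155).

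Gadd45b, which in the liver and the immune system is induced by NF-kB and TGF-beta signals, dipped. Its control arrays read 7.61 and 7.46 on day 0, 6.62 and 6.68 on day 2, 6.31 and 6.41 on day 5 and 8.36 and 8.43 on day 8. The arrays of days 2 to 5 lay below those of day 0, and those of day 8 above them. The step to day 2 was -0.89 (SE 0.33, adjusted p = 0.0452), and it was no longer called without any of the 4 arrays (adjusted p = 0.108 to 0.18) or in 5 of 12 other alternatives. With the Sox17 shRNA, Gadd45b read 7.73 and then 6.66 and 6.25, a step of -1.28 (SE 0.40, adjusted p = 0.0352), not called without day 2 replicate 2 (-1.07, adjusted p = 0.175). Its probe set next in brightness gave -0.85 (adjusted p = 0.104) and -1.36 (adjusted p = 0.0522), and the dimmest, never above the median of all values, -0.04 and 0.17.

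Gadd45g, which in mice takes part in neurogenesis and male sex determination, was flat at first in the control arm, at 6.36 and 6.44 on day 0 and 6.41 and 6.39 on day 2. It then read 4.92 and 5.35 at day 4, a fall of 1.26 on the log2 scale (SE 0.40, adjusted p = 0.0216), and 6.83 to 7.38 at days 6 and 8. The day 4 arrays were the lowest of the control arm. The call was lost without day 2 replicate 1 (adjusted p = 0.0875), day 2 replicate 2 (0.0823) or day 4 replicate 1 (-1.04, adjusted p = 0.11). With the Sox17 shRNA, Gadd45g read 8.68 on day 0, 6.88 and 5.93 on day 2 and 5.25 and 5.34 on day 4. The step from day 0 to day 2 there was -2.28 (SE 0.49, adjusted p = 0.00309).

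The second question was whether the 2 arms differed, and from when. At day 0, before differentiation began, 1 of the 9 genes was higher in the Sox17 shRNA arm (1.13% of all genes) and 0 were lower (0.760%; 1 of the 9, Fas, at an unadjusted p below 0.05). This gene was Gadd45g, at 8.68 on the Sox17 shRNA array against 6.36 and 6.44 on the control arrays. The difference was 4.85-fold (2.28, SE 0.49, adjusted p = 0.0186) and ranked 1 among the 13297 genes from the highest down. Leaving out control replicate 1 (2.24, adjusted p = 0.0809) or control replicate 2 (2.32, adjusted p = 0.0948) ended the call. It rests on 1 array of the Sox17 shRNA arm, and an effect of the hairpin and a property of that culture or array cannot be told apart. On the same array Pou5f1 read below both control arrays, and the mean of 15 pluripotency markers was 10.46 against 10.79 and 10.83. Their part in the Gadd45g difference was not tested.

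Gadd45a read 9.42 on the Sox17 shRNA array of day 0 against 8.33 and 8.14, a difference of 1.18 that did not pass the test (adjusted p = 0.121). For Aen the single array read 9.62, also above both control arrays, with a difference of 0.50 (adjusted p = 0.259). Cdkn1a and Mdm2 were 0.40 and 0.27 apart (adjusted p = 0.592 and 0.75), and Pmaip1 and Ccng1 read lower on the Sox17 shRNA array, by differences of -0.21 and -0.17. The p53 targets thus did not share a direction at day 0. Whether the step from day 0 to day 2 differed between the arms was tested as an interaction. For 0 of the 9 genes did it pass (0.158% of all genes had a higher and 0.135% a lower step in the Sox17 shRNA arm), and at an unadjusted p below 0.05 there was 1, Gadd45g (-2.27, SE 0.63, adjusted p = 0.202).

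At day 2, 1 of the 9 genes was higher in the Sox17 shRNA arm (1.55% of all genes) and 0 were lower at an adjusted or an unadjusted p below 0.05 (0.993%). This gene was Gadd45a, at 9.20 and 8.77 in the Sox17 shRNA arm against 7.73 and 7.62 in the control arm. Every Sox17 shRNA array exceeded both control arrays, by more than 1 unit. The difference was 2.49-fold (1.31, SE 0.31, adjusted p = 0.0285). At day 4 Gadd45a read 8.15 and 7.51 against 6.13 and 6.43 and was again the 1 gene of the 9 called higher (3.33% of all genes), with 0 lower (1.81%). That difference was 2.93-fold (1.55, SE 0.31, adjusted p = 0.00839).

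At day 5, 2 of the 9 were higher (6.15% of all genes) and 0 lower (3.24%). Gadd45a read 7.69 and 6.28 in the Sox17 shRNA arm against 5.86 and 6.0 (1.06, SE 0.31, adjusted p = 0.0383). Aen read 9.82 and 9.28 against 8.97 and 9.03 (0.55, SE 0.17, adjusted p = 0.046). For both genes replicate 1 of the Sox17 shRNA arm stood well above replicate 2, and without it the differences were 0.35 for Gadd45a (adjusted p = 0.618) and 0.28 for Aen (adjusted p = 0.555). Leaving out control replicate 1 (0.212 and 0.231) or 2 (0.117 and 0.14) ended both calls too. The Aen call was also lost in 9 of its 14 other alternatives, and its other probe sets gave 0.09, 0.66 and 0.29, none of them called.

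The calls for Gadd45a rest on few arrays at each single day. That of day 2 was lost without any of its 4 arrays (1.10 to 1.53, adjusted p = 0.0792 to 0.227). That of day 4 ended when control replicate 1 (1.40, adjusted p = 0.0677) or Sox17 shRNA replicate 1 (1.23, adjusted p = 0.0553) was left out, with array weights (0.238) or with only the 2 groups in the fit (0.286). What recurred was the order. At 7 of 7 days every Sox17 shRNA array read above both control arrays, which was the case for 331 of the 13297 genes (2.49%). From day 6 on the gap was small: 6.80 and 6.54 against 6.43 and 6.17 at day 6, 7.0 and 7.35 against 6.75 and 6.92 at day 8, and 6.97 and 7.13 against 6.68 and 6.49 at day 10. None of these 3 differences passed (0.37, 0.34 and 0.47, adjusted p = 0.651, 0.721 and 0.442). The mean over days 4 to 10 was 0.76 higher, 1.69-fold (SE 0.14, adjusted p = 3.93e-04, 10 arrays against 10), and this call held in every alternative and without any single array.

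The Gadd45a promoter window is printed because Gadd45a was the 1 member whose arms did not overlap on any day. These are the 250 bases before its start, chr6:67037408-67037657 on the minus strand, with the decamer match in capitals. 
Gadd45a promoter: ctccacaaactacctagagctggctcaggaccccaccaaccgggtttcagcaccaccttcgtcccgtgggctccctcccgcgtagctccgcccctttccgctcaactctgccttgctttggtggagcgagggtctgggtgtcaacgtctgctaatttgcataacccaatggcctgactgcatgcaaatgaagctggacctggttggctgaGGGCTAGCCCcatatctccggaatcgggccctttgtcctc

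On average, pluripotency markers read above the control at days 4 and 5 and below it at the earlier days. At day 2, when Gadd45a was called higher, the mean of the 15 markers was 8.32 and 8.15 in the Sox17 shRNA arm against 8.51 and 8.5. Of the 15, 0 were called (0 higher and 3 lower at an unadjusted p below 0.05), against 1.55% of all genes higher and 0.993% lower. The mean was 8.24 and 8.42 in the Sox17 shRNA arm against 7.54 and 7.73 at day 4, and 8.06 and 7.07 against 6.63 and 6.72 at day 5. At day 4, 5 of the 15 were called higher (3.33% of all genes) and 0 lower (1.81%). At day 5, 6 were called higher (6.15%) and 0 lower (3.24%). At an unadjusted p below 0.05, 1 marker was lower on each of these days, and 11 and then 13 of the 15 differences were positive. Nanog, a defining marker, read 11.44 and 9.91 against 9.26 and 9.10 at day 4, and 9.90 and 7.47 against 6.68 and 6.12 at day 5. The mean of 12 endoderm markers, which include Sox17 itself, was 7.12 and 8.16 against 9.03 and 9.11 at day 4. Of them 5 were called lower (1.81% of all genes), Sox17 among these, and 0 higher (3.33%). At day 5 the mean was 7.97 and 8.54 against 8.96 and 8.94, with 2 lower (3.24%) and 1 higher (6.15%). At day 5 replicate 1 of the Sox17 shRNA arm was thus the higher for Gadd45a, Aen, Pmaip1 and Cdkn1a and for the pluripotency markers alike. At day 4 replicate 1 was again the higher for these genes, but the mean of the pluripotency markers was lower on it (8.24 and 8.42). The part of both marker lists in the differences was not tested. In these bulk samples, fewer cells of a type and less RNA per cell cannot be told apart.

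Noxa and p21 also read above the control on these days. At day 4 Pmaip1 read 9.68 and 9.31 in the Sox17 shRNA arm against 8.71 and 8.55, and at day 5 8.83 and 7.40 against 7.36 and 6.67. At day 6 it read 7.40 and 7.91 against 6.76 and 6.62. All Sox17 shRNA arrays of these 3 days lay above both control arrays, yet no single day passed (0.86, 1.10 and 0.96, adjusted p = 0.288, 0.111 and 0.236). Over days 4 to 10 Pmaip1 was 1.73-fold higher (0.79, SE 0.19, adjusted p = 0.0036), a call that held in every alternative and without any single array. Cdkn1a read 10.12 and 9.66 against 9.19 and 9.29 at day 4 and 9.72 and 9.29 against 8.71 and 8.88 at day 5. Those differences were 0.65 (adjusted p = 0.104) and 0.71 (adjusted p = 0.0526), and they passed without Sox17 shRNA replicate 2 of the day (0.88, adjusted p = 0.0419, and 0.92, adjusted p = 0.0281). Within the Sox17 shRNA arm Cdkn1a rose by 0.72 from day 2 to day 4 (adjusted p = 0.0247). That call was lost without day 2 replicate 1 (0.0878) or 2 (0.112) or without day 4 replicate 1 (0.49, adjusted p = 0.138), and the other probe set gave 0.17. At days 8 and 10 the arms overlapped for Cdkn1a, and the mean over days 4 to 10 differed by 0.22 (adjusted p = 0.112).

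**Figure D3:**
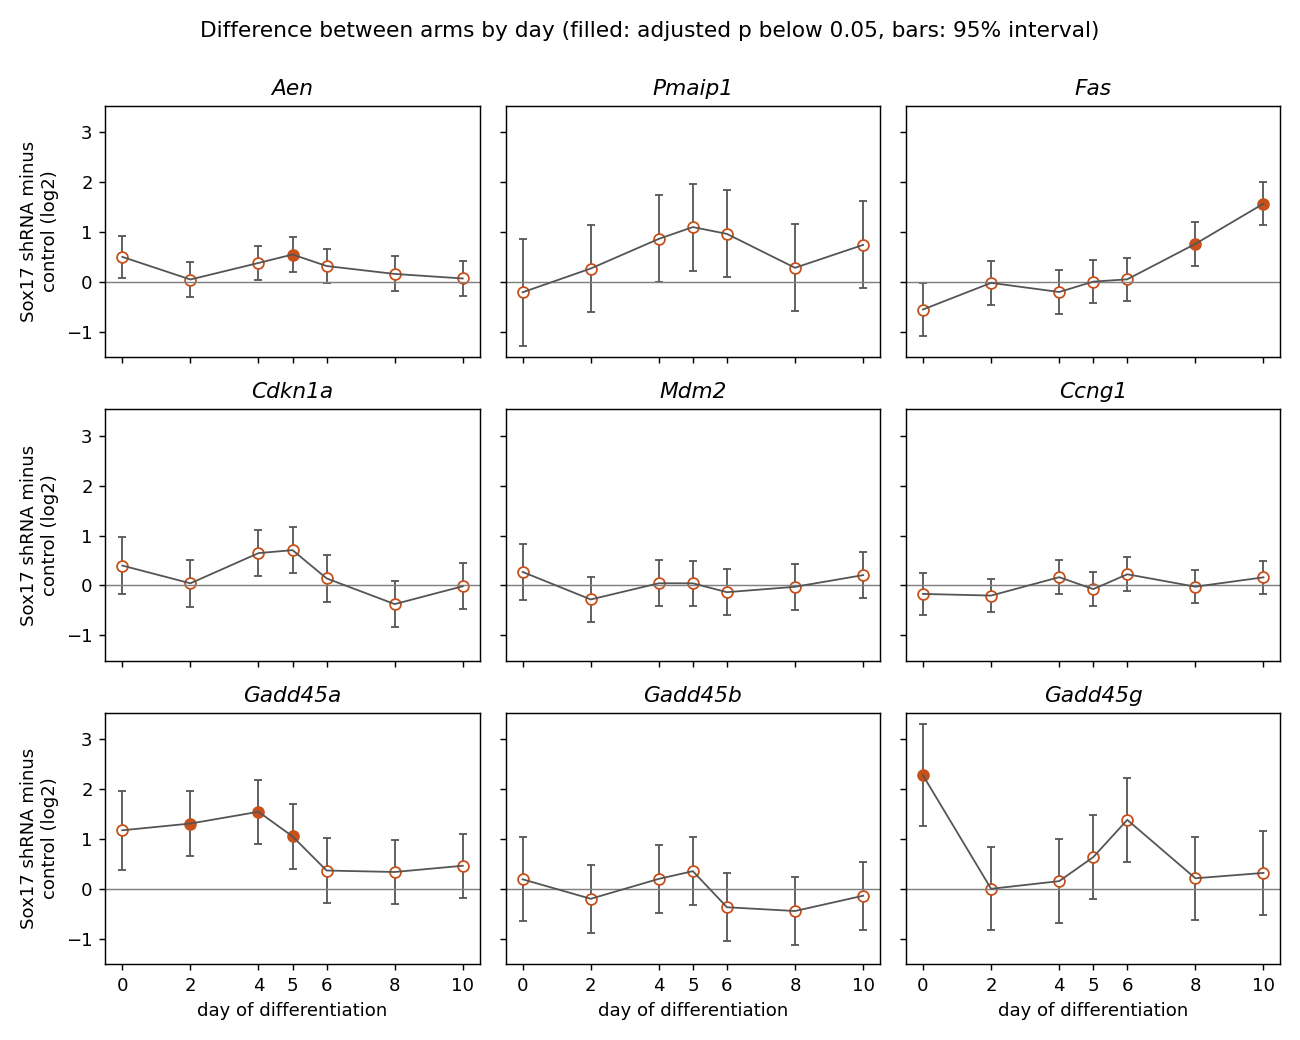
Sox17 shRNA minus control (log2 difference) for each gene and day, with the 95% interval of the limma fit as bars and filled points where the adjusted p was below 0.05. Gadd45a lies above 0 at all 7 days and is filled at days 2, 4 and 5, Gadd45g is filled at day 0, Aen at day 5, and Fas at days 8 and 10.

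Gadd45g again read above the control at day 6, at 7.85 and 8.67 in the Sox17 shRNA arm against 6.83 and 6.92, where no arrays overlapped. The difference of 1.39 just missed the threshold (SE 0.40, adjusted p = 0.0506) and passed without Sox17 shRNA replicate 1 (1.80, adjusted p = 0.0448). With all arrays, 0 of the 9 genes were called at day 6 in either direction, against 2.84% of all genes higher and 2.36% lower, and at an unadjusted p below 0.05 there were 2 higher and 0 lower. At days 8 and 10 the Gadd45g arrays of the Sox17 shRNA arm lay on either side of the control arrays (6.96 and 8.11 against 7.25 and 7.38, then 6.76 and 7.55 against 6.84 and 6.82). The mean over days 4 to 10 was 0.54 higher (SE 0.18, adjusted p = 0.029). It lost its call without any 1 of 9 of the 20 arrays (adjusted p = 0.0506 to 0.069), and without the 2 arrays of high actin 3′ to 5′ difference it was 0.45 (adjusted p = 0.0808).

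Fas encodes the death receptor for Fas ligand and was the member that separated the arms late. The control arrays ranged from 4.61 to 5.38 over all days, and the Sox17 shRNA arrays of days 0 to 6 from 4.61 to 5.29. At day 8 the Sox17 shRNA arrays read 5.85 and 5.68 against 5.01 and 5.01, and at day 10 7.08 and 6.28 against 5.12 and 5.11. Those 4 arrays are the only ones on which Fas exceeded the median of all values (5.531), and it entered the test through them alone. At day 8 it was the 1 gene of the 9 that was higher (1.89% of all genes), with 0 lower (2.93%), by 0.76 (SE 0.21, adjusted p = 0.0403), a call lost without any of the 4 arrays (0.07 to 0.23). At day 10 it was again the 1 gene called higher (5.62%), with 0 lower (4.38%). With no filter on low values, where Fas is tested whatever its level, the adjusted p was 0.0414 at day 8 and 4.39e-05 at day 10, and with a filter on at least 7 arrays it was not tested. From day 2 on, the count of members lower was 0 on each day at an unadjusted p below 0.05 too. The day 10 difference was 2.97-fold (1.57, SE 0.21, adjusted p = 6.02e-05), was called without any 1 of the 4 arrays, and is understated where the control level lies near the background of the probes.

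The 11 fibroblast and mesenchyme markers averaged 10.65 to 10.81 at day 10 in the Sox17 shRNA arm against 9.92 to 9.98. Of the 11, 4 were called higher (5.62% of all genes) and 0 lower (4.38%). Collagen gene Col3a1 read 13.57 and 13.42 against 12.68 and 12.65. The 10 cardiac muscle markers averaged 7.30 to 7.32 against 10.33 to 10.35, and all 10 were called lower (4.38%). The 11 blood and endothelial markers averaged 7.01 to 8.13 against 6.42 to 6.43, with 3 higher (5.62%) and 0 lower (4.38%). The part of these in the Fas difference was not tested.

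Averaged over days 4 to 10, 5 of the 9 genes were higher in the Sox17 shRNA arm (Aen, Pmaip1, Fas, Gadd45a and Gadd45g), against 14.8% of all genes, and 0 were lower, against 12.2% (0 also at an unadjusted p below 0.05). Aen was higher by 0.29 (SE 0.07, adjusted p = 0.00605), and Fas by 0.44 (SE 0.09, adjusted p = 0.00159), which comes from days 8 and 10. For Aen the other probe sets gave 0.16, 0.22 and 0.12, none of them called. The remaining members did not pass: Ccng1 differed by 0.09 (95% interval -0.06 to 0.24), Mdm2 by 0.03 (-0.18 to 0.23) and Gadd45b by -0.08 (-0.38 to 0.23). Fas, which entered the test through its high arrays, is 1 of the 5. The 9 genes were chosen with earlier results of these data known, so this count is a description.

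Within the Sox17 shRNA arm the replicates moved apart together. At days 6, 8 and 10 replicate 2 read higher than replicate 1 for 8 of the 9 genes, by a median of 0.44, 0.69 and 0.54 units. At days 4 and 5 it was higher for 2 and 1 of the 9. Over all genes the share higher in replicate 2 was 47.1% to 53.7% on these 5 days, and in the control arm it was 4 to 6 of the 9 genes on any day. At day 8 Gadd45b read 7.35 and 8.55, Mdm2 10.22 and 11.06, and Pmaip1 6.64 and 7.94. The mean of 19 proliferation genes was lower on replicate 2 at all 5 of these days, whichever way the members went. It read 10.56 and 10.36 on day 4, 10.42 and 10.14 on day 5, 10.24 and 9.99 on day 6, 10.10 and 9.54 on day 8 and 9.78 and 9.51 on day 10. These replicate gaps enter the errors of every late comparison above.

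**Figure D4:**
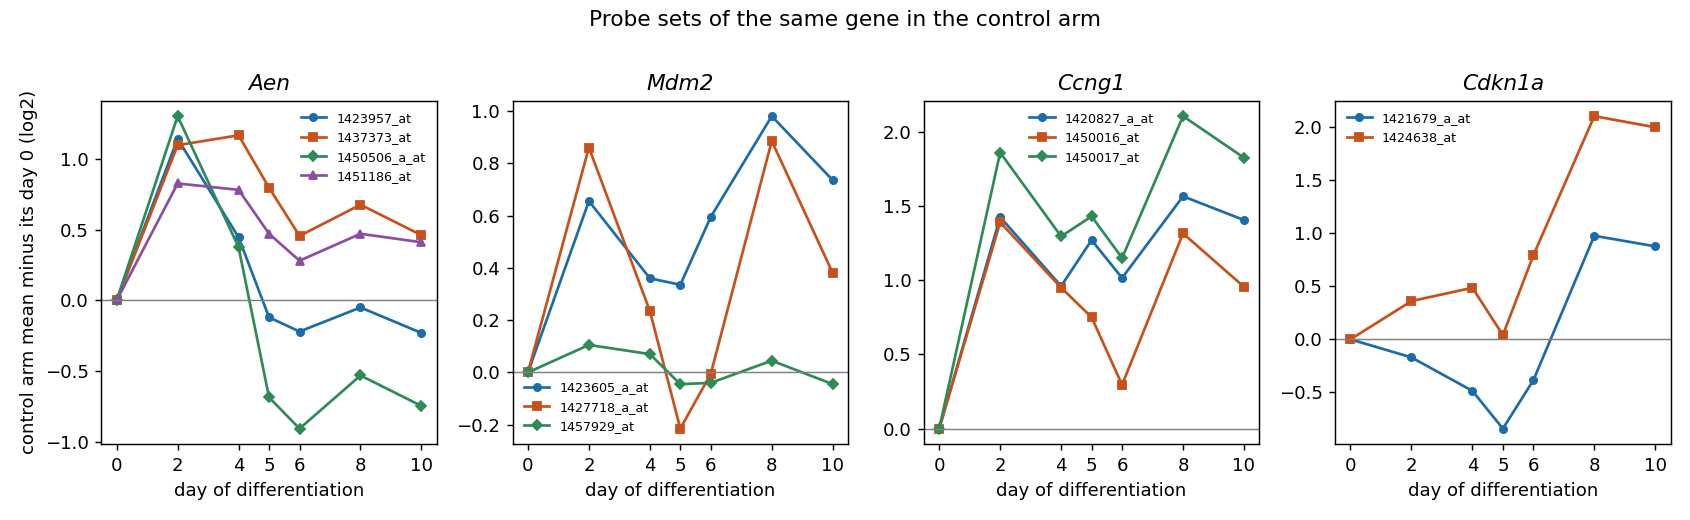
Group mean of the control arm minus its day 0 mean (log2) against the day of differentiation, for every probe set of Aen, Mdm2, Ccng1 and Cdkn1a. The 4 Aen probe sets rise together to day 2 and part after it, and the dimmest probe set of Mdm2 stays near 0.

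Other genes of the p53 pathway were counted from a list of 32 targets, of which 29 were tested. This list and those below were chosen with earlier results of these data known, so their counts are descriptions. In the control arm 10 of the 29 rose from day 0 to day 2 and 7 fell, in a step in which 16.6% of all genes rose and 15.4% fell. Those with the largest changes were Plk2, a kinase of the centrosome and of stress responses (3.84-fold, adjusted p = 8.61e-04), and Dram1, a regulator of autophagy (2.95-fold). Next were the antiproliferative gene Btg2 (2.72-fold, adjusted p = 2.06e-04) and the receptor gene Eda2r (2.45-fold, adjusted p = 6.38e-04). Dram1 is among the 10, but it passed the filter on low values only through control arrays of day 2 and later, so its p-value is left out. In the Sox17 shRNA arm 0 of the 29 rose (6 at an unadjusted p below 0.05; 7.76% of all genes rose) and 5 fell (8.65%), among them Plk3 (-1.47), Epha2 (-1.05), Tigar (-0.95) and Ddb2 (-0.83). The medians were 0.34 and 0.16, against 0.02 and 0.01 over all genes. No gene of the list passed the test of a different step between arms (0 higher and 3 lower at an unadjusted p below 0.05). Over all genes 0.158% had a higher and 0.135% a lower step.

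Dram1 and Rprm, of the targets outside the 9, are described by array. Dram1 read 4.33 and 4.13 on the control arrays of day 0, 5.58 and 6.01 on day 2 and 6.85 and 6.91 on day 10. All 13 Sox17 shRNA arrays lay between 4.09 and 4.97, below the median of all values, so Dram1 passed the filter through control arrays alone. Its arm difference is therefore given by these values alone. Rprm, which encodes the G2 arrest protein Reprimo, went the other way: it read 6.90 and 7.44 against 5.71 and 6.32 at day 4 and 10.02 and 9.43 against 8.37 and 8.51 at day 8, a mean difference of 1.08 (adjusted p = 1.02e-06). Over the list, 6 were higher (14.8% of all genes) and 2 lower (12.2%) in that mean, with a median of 0.08 against 0.01 over all genes. Dram1, which entered the test through its high control arrays, is 1 of the 2.

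Of 20 regulators of p53, 18 were tested. In the control arm 4 rose (16.6% of all genes) and 5 fell (15.4%) from day 0 to day 2. The largest falls were those of the kinase genes Chek1 (-0.98, adjusted p = 1.47e-04), Atr (-0.95) and Prkdc (-0.80) and of the deacetylase gene Sirt1 (-0.93). In the Sox17 shRNA arm 0 rose (2 at an unadjusted p below 0.05, against 7.76% of all genes) and 3 fell (8.65%), Mdm4, the partner of Mdm2, among them (-0.83, adjusted p = 0.00436). Between the arms 0 of the 18 were called at days 0, 2, 4, 5 and 6 (0 to 2 a day in each direction at an unadjusted p below 0.05). Over all genes 0.760% to 6.15% were called in a direction on these days, so 0 of 18 lies near that share. The p53 relative Trp63 was lower in the Sox17 shRNA arm at day 8 (-1.05, adjusted p = 4.30e-04) and day 10 (-1.64, adjusted p = 2.18e-06).

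Of 17 partners of the Gadd45 proteins, 14 were tested. From day 0 to day 2, 3 rose (16.6% of all genes) and 3 fell (15.4%) in the control arm. In the Sox17 shRNA arm 1 rose (7.76%) and 3 fell (8.65%). Ercc5 was among those that rose in the control arm (0.73), and Map2k4 rose in the Sox17 shRNA arm (0.72). The DNA dioxygenase genes Tet2 and Tet1, which act in demethylation, fell from day 0 to day 2 in both arms, Tet2 with log2 differences of -3.85 and -3.38 and Tet1 with -1.06 and -1.29. The step of Gadd45a itself to day 2 was -0.56 (adjusted p = 0.183) and -0.43 (adjusted p = 0.518). Gadd45gip1, whose product binds Gadd45 proteins and is part of the mitochondrial ribosome, was higher in the Sox17 shRNA arm at days 2, 5 and 6 (0.82, 0.93 and 0.79, adjusted p = 0.0234, 0.00454 and 0.0154). In the mean over days 4 to 10, 3 of the 14 were higher and 1 was lower (14.8% and 12.2% of all genes).

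Of 16 apoptosis partners of Noxa and Fas, 13 were tested. In the control arm 5 rose from day 0 to day 2 (16.6% of all genes) and 0 fell (15.4%). The largest rises were those of Bcl2l11, which encodes the BH3-only protein Bim (0.79), the caspase 8 inhibitor gene Cflar (0.79), Casp8 (0.77) and Diablo (0.53). In the Sox17 shRNA arm 1 rose in that step (Xiap, 0.62, against 7.76% of all genes) and 0 fell (8.65%). Between the arms, Bid, which links caspase 8 to mitochondria, was higher with the Sox17 shRNA at days 4 and 5 (1.0 and 1.0, adjusted p = 0.0088 and 0.00462), and Casp8 was lower at day 5 (-0.75, adjusted p = 0.0113). Over days 4 to 10, 4 of the 13 were higher and 1 lower (14.8% and 12.2% of all genes). Of 5 paralogs of members, 4 were tested. Cdkn1c, a kinase inhibitor related to Cdkn1a, rose 4.04-fold to day 2 in the control arm (adjusted p = 1.16e-04), where Cdkn1a did not pass. Ccng2, a relative of Ccng1, was lower in the Sox17 shRNA arm over days 4 to 10 (-0.61, adjusted p = 7.37e-05).

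The profiles of the members were compared over the 14 group means, as a description. These points share arrays of each day and a common time course. Aen and Pmaip1 followed each other most closely (r = 0.88), then Cdkn1a and Mdm2 (0.86) and Ccng1 and Mdm2 (0.76). The Gadd45 genes did not form a group, with r = 0.59 for Gadd45b and Gadd45g, 0.30 for Gadd45a and Gadd45g and -0.03 for Gadd45a and Gadd45b. Among all genes tested, the profile of Aen was most like that of Srpk1 (0.96), of Pmaip1 like H2-Q5 (0.937), of Gadd45a like Hmgxb4 (0.966) and of Cdkn1a like Lacc1 (0.972). That of Fas was most like Upk3b (0.963) and Col8a2 (0.943), and that of Gadd45g had no close match, with Gap43 at 0.845.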

How the data were processed

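Total RNA, extracted with TRIzol and RNeasy reagents per the labels' protocols, was labelled with biotin and hybridised to 27 Affymetrix mouse arrays. The deposited values are log2 expression values for 45101 probe sets, made by the authors with RMA (background correction, quantile normalization and summary by probe set) per the submitters' processing notes; its version is not given in the sources used here. Quantile normalization sets every array to 1 distribution, so differences are relative, and RMA understates folds of dim probe sets. The number of arrays limits the precision.

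Probe sets were named from the platform annotation: 34958 had 1 symbol, 932 several and 9211 were not listed. Those with 1 symbol that exceeded 5.531, the median of the whole table, on 2 or more arrays were kept (23536), and the probe set with the highest mean stood for each of 13297 genes. A mean for each of the 14 groups was fitted to all arrays with limma 3.58.1 in R 4.3.3 (13 residual degrees of freedom, intensity trend, prior degrees of freedom 4.68), and two-sided p-values were adjusted by Benjamini and Hochberg over all genes of each of 14 comparisons. The fit treats days as independent. If cultures differ in a way that lasts over days, SE and p-values of means over days are too small. Scripts were tested on simulated data. The text names the 9 members, Sox17, at most 4 called genes per list and comparison and the most alike profiles; the values of marker genes and of Dram1 and Rprm by array were added after they were seen. Members and lists were chosen with earlier results of these data known. Genes of the lists that were not annotated or not above the filter were not analysed here. Alternatives covered the probe set, filter, moderation, centring, samples, replicate block, bioB signal, array weights and each array left out.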

Additional observations from a re-analysis of the deposited data

Results flagged for a closer look

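Among the 9 genes, 4 had arms that did not overlap at several days and in opposite directions, counting the single Sox17 shRNA array of day 0. The share of all genes with such a pattern was not counted. With 1 or 2 arrays in a group, the 4 therefore cannot be told from the background. For Ccng1 that array (10.13) read below both control arrays, a difference of -0.17, and at day 2 both Sox17 shRNA arrays (11.49 and 11.55) read below both control arrays (11.72 and 11.72), a difference of -0.20. At day 6 they read above them (11.41 and 11.66 against 11.24 and 11.38, a difference of 0.22), and at day 10 again (11.71 and 12.01 against 11.70 and 11.70, 0.16). For the other 3 genes the opposite direction involves the single array of day 0. Pmaip1 differed by -0.21 at day 0 and by 0.27, 0.86, 1.10, 0.96 and 0.74 at days 2, 4, 5, 6 and 10. Fas differed by -0.55 at day 0 and by 0.76 and 1.57 at days 8 and 10, and Mdm2 by 0.27 at day 0 and -0.28 at day 2. Of these, the Fas differences at days 8 and 10 were called (adjusted p = 0.0403 and 6.02e-05). Fas entered the test only through its high Sox17 shRNA arrays of those days. The change of direction between days was not tested.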

How the results depend on the processing

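The 9 genes had 32 called differences, which gave 566 values under the alternatives: 470 stayed called, 93 lost the call and 3 changed sign, and 14 of the differences were called throughout. The signs turned on other probe sets: Gadd45b from day 0 to day 2 in the Sox17 shRNA arm (0.17), Aen from day 2 to day 4 in the control arm (0.072) and, uncalled in the first place, in the Sox17 shRNA arm (0.31 and 0.19), and Mdm2 from day 0 to day 10 (-0.046). The causes were not tested.

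The count of members called moved as follows. With array quality weights it was 0 in place of 2 for the Sox17 shRNA step from day 2 to day 4, 7 in place of 4 for control day 10 against day 0, 3 in place of 1 for the arm difference at day 0, 0 in place of 1 at day 4, 1 in place of 0 at day 6 and 1 in place of 0 for the interaction. With only the groups compared in the fit the counts were 0, 8, 4 and 0 for the first 4 of these, 0 in place of 2 at day 5 and 1 for the interaction. At day 5 it was 1 with the most variable probe set, no filter, no trend or bioB as a covariate, and 0 with arrays centred. At day 6 it was 1 with arrays centred or bioB as a covariate. With a filter on at least 7 arrays Fas was not tested, and the counts at days 8 and 10 were 0. Without the 2 arrays of high actin 3′ to 5′ difference, an alternative chosen after seeing the data, the Sox17 shRNA step from day 2 to day 4 had 1 call and the arm difference at day 4 had 2.

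With each array left out in turn, the count was 3 in place of 5 for the control step to day 2, 3 to 4 in place of 5 for that of the Sox17 shRNA arm, 2 to 3 in place of 4 for the control step to day 4, 0 to 2 in place of 2 for the Sox17 shRNA step, and 4 as before for control day 10. For the arm differences it was 0 in place of 1 at day 0, 0 at day 2, 0 to 2 at day 4, 0 to 4 at day 5, 0 to 1 at day 6, 0 at day 8, 1 at day 10, 4 to 6 for the mean over days 4 to 10 and 0 for the interaction.

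Same-numbered arrays of the 2 arms deviated together with r from 0.0986 to 0.683 (over 0.1 on 5 of 6 days). Pairing by number was to be used only with r over 0.1 on every day, and the labels give no meaning to the number, so the fits without it are the ones reported. With day by number as a replicate block the count was 0 at day 0, where the Gadd45g call was lost (2.32, adjusted p = 0.0663), 3 in place of 2 at day 5 (Cdkn1a added, adjusted p = 0.0492) and 1 at day 6 (Gadd45g, 0.0341); with the number as an additive replicate block it was 3 at day 5, 1 at day 6 and 3 for the Sox17 shRNA step from day 2 to day 4, and no other count moved. Gene counts over the whole table moved too: at day 4 of the arm difference 684 became 0 to 1369, and at day 0 251 became 64 to 2111. With 2 arrays a group, a day 0 value from 1 array and dim probe sets for Fas and Dram1, small differences could not be detected, and a difference that was not called is not shown to be absent.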
